A study of Mus musculus with 5 samples.

Results

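MAP kinase cascades relay signals from the cell surface to the nucleus by phosphorylation in tiers. A MAP4K can activate a MAP3K, a MAP3K phosphorylates a MAP2K, and a MAP2K phosphorylates a MAP kinase of the ERK, p38 or JNK type. Dual specificity phosphatases, encoded by Dusp genes, include the enzymes that remove the phosphates from MAP kinases and end the signal. In developing B cells, ERK acts downstream of the pre-B-cell receptor. The transcription factor EBF1, without which B cells do not form, binds DNA as a dimer. The genes described are the 73 RefSeq protein-coding genes of mouse (assembly GRCm38) whose symbols start with Mapk, Map2k, Map3k, Map4k or Dusp followed by a digit, out of 21521 protein-coding genes.

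The sites come from ChIP-seq with an antibody against EBF1 in cells labelled pro-B cells. These were fetal liver cells of genotype Ebf1-/-, transduced with wild-type EBF1 (EBF1 wt), so the EBF1 measured was the transduced protein. The series also holds an EBF1 ChIP and a BRG1 ChIP with a form of EBF1 called YmA and an input for each antibody, 5 libraries in all with 1 in each group; those other 4 were not analysed here. The EBF1 wt library gave a list of 7494 sites, each 300 bp wide and with no score, so depth and strength are unknown and no value here has a replicate or a test. The authors gave each site a class, YmA-dep, YmA-ind or CTD-ind, used here as a label only, since no source used here says how it was made. A list of positions holds no expression values, so the cell label could not be checked against marker genes.

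A site was assigned to every protein-coding gene that held its centre, or otherwise to the nearest one within 100 kb. By this rule 22 of the 73 genes had at least 1 EBF1 site (30.1%, exact 95% binomial interval 19.9 to 42.0%), against 19.8% of all protein-coding genes. Together they had 42 sites, an average of 0.575 per gene against 0.333 over all protein-coding genes. Intervals throughout are exact (Clopper-Pearson) and cover counting error only. For shares of sites they treat each site as independent, although several genes had more than 1 site. The most upstream tier of kinases, MAP4K, had sites at 4 of 5 genes. MAP3K genes had sites at 6 of 18, MAP kinase genes at 5 of 13 and Dusp genes at 5 of 24. None of the 7 MAP2K genes had a site. Of 6 further genes with these prefixes that encode neither a kinase of the cascade nor a Dusp phosphatase, 2 had a site. With so few genes per tier the intervals were wide, from 0.0 to 41.0% for MAP2K genes and from 28.4 to 99.5% for MAP4K genes.

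**Figure D1:**
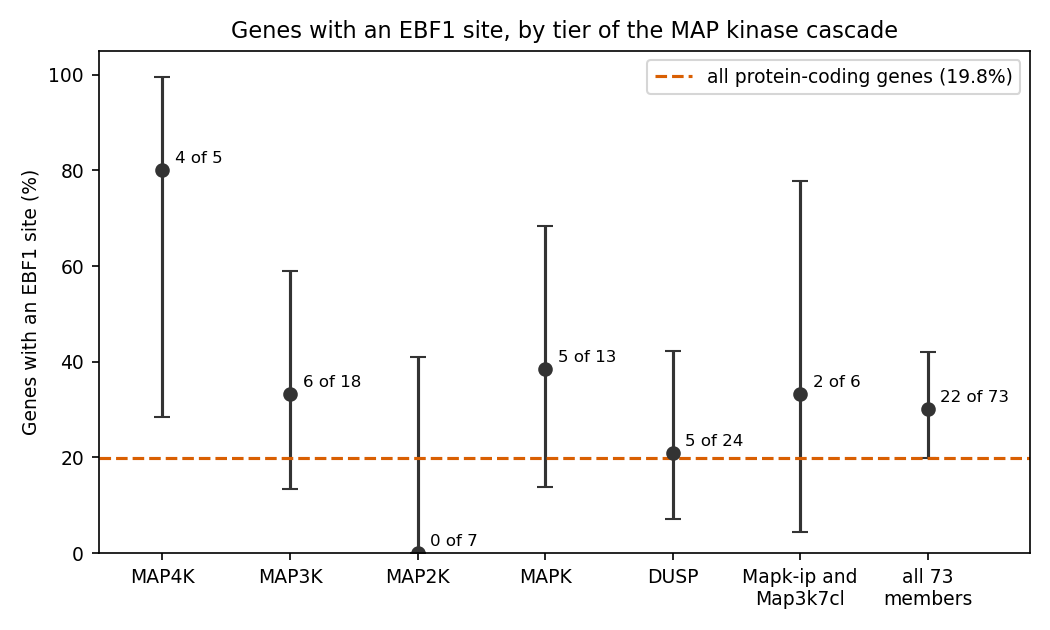
Share of genes with an assigned EBF1 site (y axis, %) in each tier and over all 73 genes (x axis). Points are shares with exact 95% binomial intervals, and the dashed line marks the 19.8% of all protein-coding genes. MAP4K genes lie highest at 4 of 5 and MAP2K genes at 0 of 7, with overlapping intervals.

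At 4 of these genes (Map4k1, Dusp5, Dusp22 and Mapk14) a promoter window of the RefSeq table (GRCm38.p6, 250 bases before to 50 after a gene's start) shares bases with an assigned site. Stretches of the Map4k1, Dusp5 and Dusp22 sites are printed because these sites lie just upstream of a gene start, and a stretch at the start of the long noncoding RNA gene Mirt1 because a distal Dusp5 site lies there. Each runs 5′ to 3′ on the strand of the named gene and includes only bases inside the site. Capitals mark matches to CCCNNGGG, the core of the recognition sequence of EBF factors, which reads the same on both strands.
Map4k1, chr7:28982604-28982903, plus strand: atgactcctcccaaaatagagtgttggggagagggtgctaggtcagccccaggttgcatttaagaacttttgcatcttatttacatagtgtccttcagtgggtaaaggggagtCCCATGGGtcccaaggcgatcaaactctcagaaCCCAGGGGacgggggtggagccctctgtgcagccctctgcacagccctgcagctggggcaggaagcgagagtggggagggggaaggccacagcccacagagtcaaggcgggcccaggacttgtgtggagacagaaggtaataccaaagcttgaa
Dusp5, chr19:53528895-53529058, plus strand: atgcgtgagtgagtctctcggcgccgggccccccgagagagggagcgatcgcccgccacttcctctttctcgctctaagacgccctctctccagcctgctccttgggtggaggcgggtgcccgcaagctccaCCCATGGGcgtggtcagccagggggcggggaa
Dusp22, chr13:30659809-30659952, plus strand: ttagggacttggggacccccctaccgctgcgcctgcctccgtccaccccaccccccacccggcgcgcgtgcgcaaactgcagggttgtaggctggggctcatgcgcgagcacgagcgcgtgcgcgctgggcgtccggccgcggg
Mirt1, chr19:53464747-53465040, minus strand: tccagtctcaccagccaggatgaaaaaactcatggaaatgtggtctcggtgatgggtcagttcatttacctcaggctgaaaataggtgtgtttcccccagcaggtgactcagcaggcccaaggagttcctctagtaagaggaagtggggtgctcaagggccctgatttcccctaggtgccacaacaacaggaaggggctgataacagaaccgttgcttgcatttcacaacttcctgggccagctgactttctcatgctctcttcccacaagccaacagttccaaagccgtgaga

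The Map4k1 stretch is the whole site and holds 2 matches, the second of which is centred 0 bp from the centre of the site and the first 33 bp from it. The Dusp5 stretch, 164 of the 300 bases of its site, holds 1 match, 122 bp from the centre. The Dusp22 stretch (144 bases, 75.0% G or C) and the Mirt1 stretch (294 bases, 51.7% G or C) hold none of these letters. Over all 32851 promoter windows of the table, 13.7% held CCCNNGGG. Of 436 windows of other genes that shared at least 150 bases with a site, 58.0% held it. In those windows 305 matches lay inside a site, at a median of 16.0 bp from its centre, and 5.25% of them lay 100 bp or more away, as the Dusp5 match does. With T before and A after these letters, a stricter form that also reads the same on both strands, it was in 0.904% of all windows, in 16.5% of those 436, and in 0 of the 70 windows listed for the 73 genes. CCCNNGGG itself was in 22 of those 70 (31.4%, against 13.7% of all windows), and in 6 of them it had T before or A after it (8.57%, against 6.56%). Most of these 22 windows shared no base with a site. Only 6 of the 70 windows did, of which 3 held CCCNNGGG, and a match lay inside the site at Map4k1 and Dusp5 only. A match is a description of the letters only, and the bases of a site outside a window were not read.

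The MAP4K tier, which receives signals from receptors and adaptors, had 5 YmA-ind sites and 1 CTD-ind site. At Map4k1, which encodes HPK1, a blood-cell kinase that restrains antigen receptor signalling, the single site (chromosome 7, 28982604 to 28982903) was CTD-ind. It lay inside the gene span and was centred 101 bp upstream of the second of 2 listed starts. It thus matched the promoter window of that start base for base. The start of the neighbouring gene Eif3k also lay within 1 kb of the site. Map4k2, the gene of germinal centre kinase, had 2 YmA-ind sites on chromosome 19, at 6341601 to 6341900 and 6342468 to 6342767. They lay inside the gene, 590 bp and 1.46 kb downstream of its start and 867 bp from each other. A further YmA-ind site, assigned to Men1, was centred 229 bp outside Map4k2 (6340612 to 6340911), so that 3 sites lay around its start. Map4k4 had 2 YmA-ind sites outside the gene on chromosome 1, 32.8 kb beyond its lower-coordinate end (39867968 to 39868267) and 1.10 kb beyond its other end (40027256 to 40027555). Map4k5 held 1 site, YmA-ind, 29.4 kb downstream of its start. Map4k3 had no assigned site, although a CTD-ind site assigned to Cdkl4 lay 3.09 kb outside it.

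MAP3K kinases differ in the stimuli they answer to, and the 6 genes with a site had 13 (10 YmA-ind, 2 CTD-ind, 1 YmA-dep). Most of these sites lay inside genes and away from their ends: 10 of the 13 were inside, and 1 of the 13, at Map3k6, was within 1 kb of a gene end. Map3k8 encodes Tpl2, which activates the MAP2Ks of the ERK pathway. Its 3 sites on chromosome 18 were all YmA-ind. A pair 1.275 kb apart lay 36.6 and 35.4 kb beyond its lower-coordinate end (4294530 to 4294829 and 4295805 to 4296104), and the other (4349656 to 4349955) was inside the gene, 3.15 kb from an end. Map3k5 encodes ASK1, a kinase activated by oxidative stress. It had 3 sites inside the gene on chromosome 10, YmA-ind at 57.5 kb (19991906 to 19992205) and 68.1 kb (20002489 to 20002788) and CTD-ind at 88.7 kb (20023058 to 20023357) downstream of its start. All 3 fell between 27.8 and 42.7% of the way along the gene.

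Map3k4 encodes MEKK4, which is activated by GADD45 proteins, and had 3 sites inside the gene on chromosome 17. A YmA-ind site (12249836 to 12250135) lay 68.7 kb downstream of its start. A YmA-dep site (12305324 to 12305623) and a YmA-ind site (12305814 to 12306113) lay 13.2 and 12.7 kb downstream. The centres of these 2 neighbours were 490 bp apart, the closest pair at any of the 73 genes, and they carried different classes. Map3k1, the gene of MEKK1, had a YmA-ind site inside the gene, 7.13 kb downstream of its start, and a YmA-ind site 20.8 kb upstream of it. Map3k3, the gene of MEKK3, had 1 site, CTD-ind, 50.5 kb downstream of its start within the gene. Map3k6 had a YmA-ind site on chromosome 4 (133237996 to 133238295), 166 bp inside the lower-coordinate end of the gene. That site was 2.67 kb upstream of the listed start of Map3k6 and inside the pseudogene Fcnc-ps.

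MAP3K genes without a site were Map3k2, Map3k7, Map3k9 to Map3k15, Map3k19, Map3k20 and Map3k21. Among them are the genes of TAK1 (Map3k7), which acts in innate immune signalling and whose nearest site lay 216 kb away, and of NIK (Map3k14), which drives noncanonical NF-kappaB signalling and whose nearest site lay 43.4 kb away in or near Fmnl1. Close to Map3k10, a minus-strand gene, lay the centre of a CTD-ind site (chromosome 7, 27674738 to 27675037). It was 257 bp beyond the higher-coordinate end of the gene, on the upstream side of its start. This site shared 94 bases with its promoter window, but it was assigned to Zfp607b.

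MAP2K kinases are the narrow part of the cascade, each acting on few MAP kinases, and none of Map2k1 to Map2k7 had a site. None had a site of another gene within 10 kb either. The nearest sites lay 17.6 kb from Map2k5, 17.8 kb from Map2k3, 23.5 kb from Map2k2, 45.3 kb from Map2k7 and 46.6 kb from Map2k1. For Map2k6 and Map2k4 the nearest site lay 959 and 1230 kb away. The 5 nearer sites were all CTD-ind and were assigned to other genes, among them Natd1, Thop1 and Zwilch. The median length of the MAP2K genes was 67.8 kb. It was 89.4 kb for MAP4K, 63.1 kb for MAP3K, 23.2 kb for MAP kinase and 11.85 kb for Dusp genes. The part of length in the differences between tiers was not tested. Because depth is unknown, the lack of a site in the list does not show that EBF1 was absent from a gene.

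The MAP kinase tier had 6 sites at 5 genes, all inside the gene, with 3 YmA-ind, 2 CTD-ind and 1 YmA-dep. Mapk14 encodes p38 alpha, the main p38 kinase. Its site (chromosome 17, 28691343 to 28691642) was CTD-ind and centred 150 bp downstream of the first of 2 listed starts.

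Of the other MAP kinase genes, Mapk11, the gene of p38 beta, had a YmA-ind site 1.46 kb downstream of its start. Mapk10 encodes JNK3, a kinase known mainly from neurons, and is the longest of the 73 genes at 304 kb. It had 1 YmA-dep site (chromosome 5, 102978891 to 102979190), whose nearest neighbour in the list was 714 kb away. Mapk4 encodes the atypical kinase ERK4 and had 2 YmA-ind sites 14.5 kb apart, both over 60 kb from either end of the gene. Genes of this tier with no assigned site included Mapk3 (ERK1), Mapk7 (ERK5), Mapk8 (JNK1), Mapk9 (JNK2) and Mapk12. Within 10 kb of Mapk12, which adjoins Mapk11, lay the Mapk11 site and a CTD-ind site assigned to Hdac10, at 1.82 kb.

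Read by pathway across tiers, 2 of 6 genes of the p38 branch (Map2k3, Map2k6, Mapk11 to Mapk14) had a site. Of the JNK branch (Map2k4, Map2k7, Mapk8 to Mapk10), 1 of 5 had one, and of the ERK5 branch (Map2k5, Mapk7) none of 2. Beside the 19.8% of all protein-coding genes, counts this small do not set one branch apart from another.

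Dusp genes had 14 sites at 5 of 24 genes (7 YmA-ind, 6 CTD-ind, 1 YmA-dep). The inducible nuclear MAP kinase phosphatases, which are switched on by the signals they end, had 10 of the 14 sites, at Dusp2, Dusp4 and Dusp5, and Dusp1 had none. That share rested on distant sites: it was 5 of 9 within 20 kb, 4 of 8 with any site inside or within 10 kb, and 2 of 4 inside genes. Of the cytoplasmic, ERK-selective phosphatases, Dusp7 had 2 sites, and Dusp6 and Dusp9 had none. The JNK and p38 phosphatase genes Dusp8, Dusp10 and Dusp16 had none. Of 14 atypical Dusp genes, most of which encode phosphatases without a MAP kinase docking domain, only Dusp22 had a site by this assignment. The genes without one were Dusp3, Dusp11 to Dusp15, Dusp18, Dusp19, Dusp21, Dusp23 and Dusp26 to Dusp28.

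Dusp5, which encodes a nuclear phosphatase specific for ERK, had 6 sites on chromosome 19, the most of the 73 genes. A YmA-ind site (53528759 to 53529058) was centred 237 bp upstream of its start, and the only YmA-dep site of a Dusp gene (53535080 to 53535379) lay 6.08 kb downstream, inside the gene. The other 4 lay upstream. They were YmA-ind at 26.1 kb (53502937 to 53503236), 44.0 kb (53485000 to 53485299) and 64.3 kb (53464741 to 53465040), and CTD-ind at 49.3 kb (53479655 to 53479954). The farthest of these shared 294 of its 300 bases with the promoter window of Mirt1. With a limit of 20 kb, Dusp5 had 2 sites.

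Dusp2 encodes PAC-1, a nuclear phosphatase of ERK and p38 found mainly in blood cells. It had 3 sites on chromosome 2, all CTD-ind, 12.3 kb upstream (127323734 to 127324033), 980 bp upstream (127335030 to 127335329) and 1.98 kb downstream of its start (127337993 to 127338292). The last was inside the gene, 235 bp from its far end, and within 1 kb of the start of the neighbouring gene Astl. The first 2 lay inside the long noncoding RNA gene Gm46762, whose start was within 1 kb of the nearer one. Dusp2 spans 2.22 kb, the shortest of the 22 genes with a site.

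Dusp22 encodes an atypical phosphatase that regulates JNK and T-cell receptor signalling. Its nearer site (chromosome 13, 30659653 to 30659952) was CTD-ind and centred 257 bp upstream of its start, and a YmA-ind site (30657930 to 30658229) lay 1.98 kb upstream. Both were inside the long noncoding RNA gene Gm35158. Dusp7 had a CTD-ind and a YmA-ind site inside the gene on chromosome 9, 3.47 and 4.48 kb downstream of its start and 1.013 kb apart. Dusp4 had a single YmA-ind site 75.9 kb beyond its lower-coordinate end, the farthest assigned to any of the 73 genes. Beyond the limit of 100 kb, the next sites nearest to one of these genes were 4 at Map3k1, the closest of them 118 kb away.

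**Figure D2:**
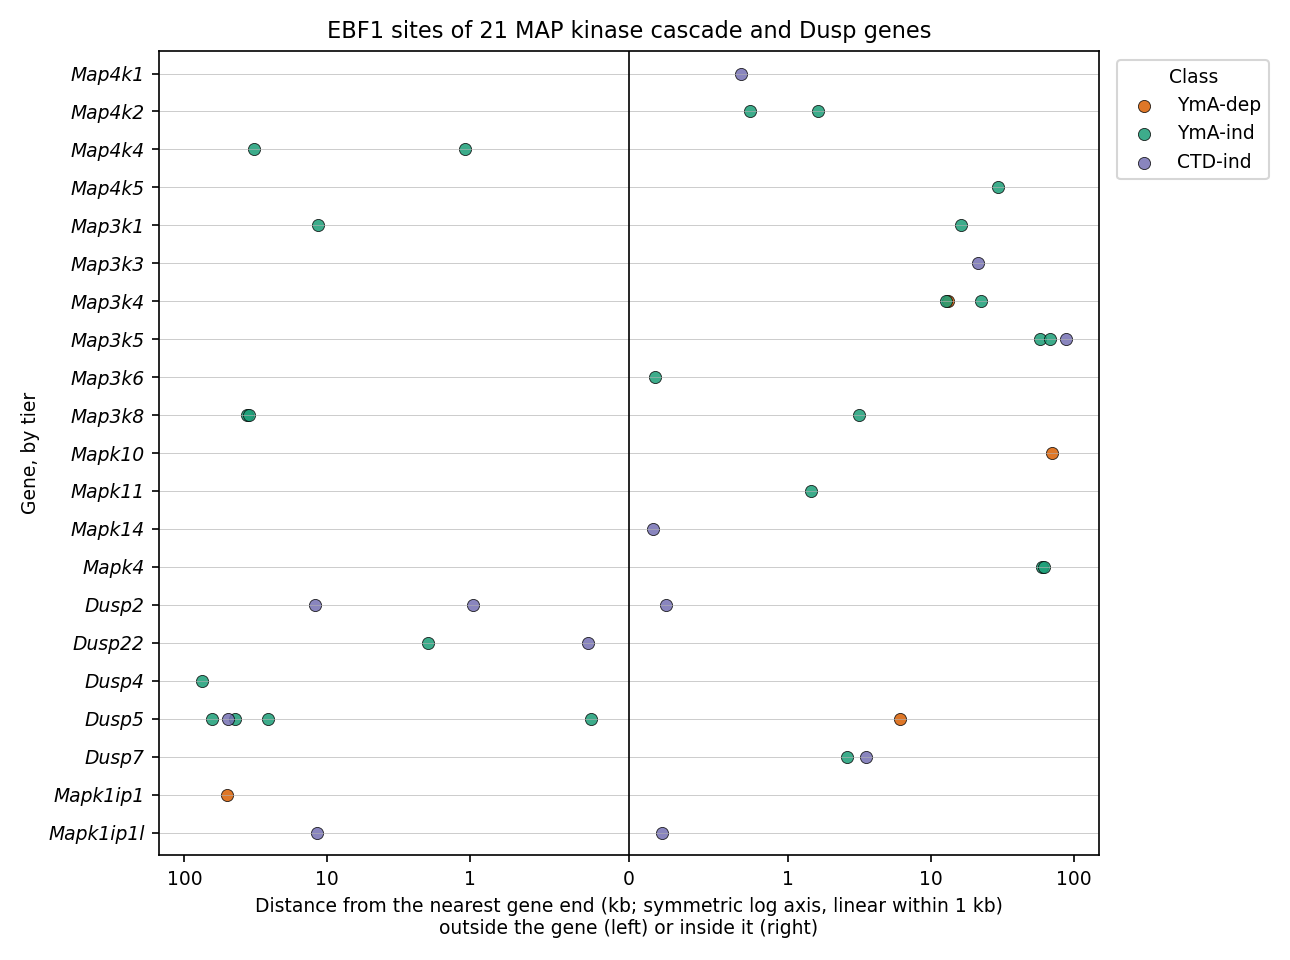
Position of 41 of the 42 sites (points, coloured by class) at 21 of the 22 genes with a site, listed by tier. The x axis is the distance from the nearest end of the gene in kb on a symmetric log scale, left of 0 outside the gene and right of 0 inside it. The sites of MAP kinase genes lie inside, while 10 of the 14 Dusp sites lie outside, 5 of them at Dusp5. Of the other assigned sites, 59.6% lie inside. Median gene length is 11.85 kb for Dusp and 23.2 kb for MAP kinase genes, and its part in this was not tested.

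Of the remaining genes with these prefixes, Mapk1ip1l had 2 CTD-ind sites on chromosome 14. One was centred 208 bp downstream of its start (47298333 to 47298632) and the other 11.8 kb beyond its far end (47334890 to 47335189). Mapk1ip1 had 1 YmA-dep site, 50.2 kb outside the gene and inside the long noncoding RNA gene Gm30874. Mapk8ip1, Mapk8ip2 and Mapk8ip3, which encode JNK scaffold proteins, and Map3k7cl had none. A YmA-ind site assigned to Cry2 lay 4.605 kb outside Mapk8ip1.

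Over all 42 sites, the make-up by class was close to that of the other sites. YmA-ind sites made up 59.5% (25 of 42, 43.3 to 74.4%), against 53.6% of the 7040 other sites assigned to a protein-coding gene. CTD-ind sites made up 31.0% (13 of 42, 17.6 to 47.1%), against 35.2%, and YmA-dep sites 9.52% (4 of 42, 2.66 to 22.6%), against 11.25%. Each of the 3 shares of the other sites lay inside the interval of the 42. By gene, 14 of 73 had a YmA-ind site (12.3% of all protein-coding genes did), 10 had a CTD-ind site (9.45%) and 4 had a YmA-dep site (3.30%). The 4 with a YmA-dep site were Map3k4, Mapk10, Dusp5 and Mapk1ip1.

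Several genes had sites of a single class. Of 12 genes with 2 or more sites, 7 did: Map4k2, Map4k4, Map3k1, Map3k8 and Mapk4 with YmA-ind and Dusp2 and Mapk1ip1l with CTD-ind. Over all protein-coding genes with 2 or more sites this was so for 31.9% (470 of 1474). With only 12 genes, this difference was not tested. Genes with 3 or more sites numbered 5 of 73 (Map3k4, Map3k5, Map3k8, Dusp2 and Dusp5), against 3.02% of all protein-coding genes. The interval of the 5 of 73, 2.26 to 15.3%, spans that share.

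Sites near gene ends were mainly CTD-ind, both here and among the other assigned sites. Of the 42 sites, 10 (23.8%, 12.05 to 39.5%) were centred within 1 kb of an end of their gene, against 16.1% of the other assigned sites. These 10 lay at 9 of the 73 genes (12.3%, 5.795 to 22.1%), while 5.18% of all protein-coding genes had such a site. The 5.18% lies below that interval, a difference that was not tested. By class the 10 sites were 7 of 13 CTD-ind, 3 of 25 YmA-ind and 0 of 4 YmA-dep sites, against 28.9, 10.2 and 4.17% of the other sites. The interval of the 7 of 13 was 25.1 to 80.8%, which spans the 28.9%. Of the 1135 other sites near an end, 716 were CTD-ind. The CTD-ind sites included those of Map4k1, Mapk14, Dusp22 and Mapk1ip1l and 2 at Dusp2. The 3 YmA-ind sites were those of Map4k2, Map3k6 and Dusp5. Sites inside genes made up 59.5%, against 59.6% of the other sites.

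**Figure D3:**
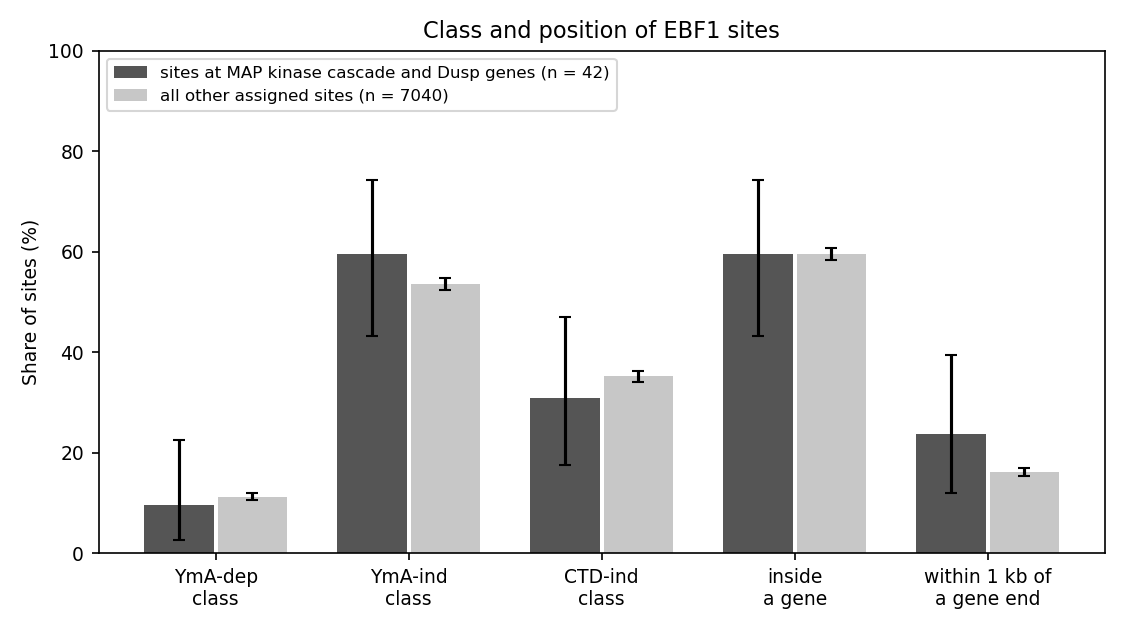
Share of sites (y axis, %) in each class, inside a gene and within 1 kb of a gene end, for the 42 sites at MAP kinase cascade and Dusp genes (dark) and the 7040 other assigned sites (light). Bars start at 0 and error bars are exact 95% binomial intervals. For each of the 5 measures, the interval of the 42 sites spans the share of the other sites.

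The start of a gene was listed in the promoter table for 55 of the 73 genes, which held 32 of the 42 sites. Of these 32, 7 (21.9%, 9.28 to 40.0%) were within 1 kb of a start, against 16.8% of 5505 other sites. They were 4 upstream (Map4k1, Dusp2, Dusp5, Dusp22) and 3 downstream (Map4k2, Mapk14, Mapk1ip1l). Of the other sites within 1 kb of a start, 460 were upstream and 465 at or downstream of it. Outside genes, 10 sites lay upstream and 1, at Mapk1ip1l, downstream, a split not made for the other assigned sites. Dusp5 alone gave 5 of the 10 upstream sites.

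The sites of these genes were also set beside their neighbours in the list. The median distance to the nearest other site was 14.7 kb, against 22.6 kb for the other assigned sites. Of the 42, 10 (23.8%) had another site within 2.5 kb, against 13.9%, a difference that was not tested. These were pairs at Map4k2, Map3k4, Map3k8, Dusp22 and Dusp7, with both sites YmA-ind at Map4k2 and Map3k8 and 2 classes at each of the others.

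Longer genes had sites more often, and gene length moved with the count. The 22 genes with a site had a median length of 38.05 kb, against 19.4 kb for the 51 without one. Over all protein-coding genes the medians were 32.2 kb with a site and 14.8 kb without. Among genes up to 9.03 kb, 3 of 15 of the 73 (20.0%) had a site, against 9.44% of all protein-coding genes. Among genes between 9.03 and 31.7 kb, 8 of 27 did (29.6%, against 19.9%), and among longer genes 11 of 31 (35.5%, against 30.0%). The part of length in the difference between the 73 genes and all genes was not tested.

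**Figure D4:**
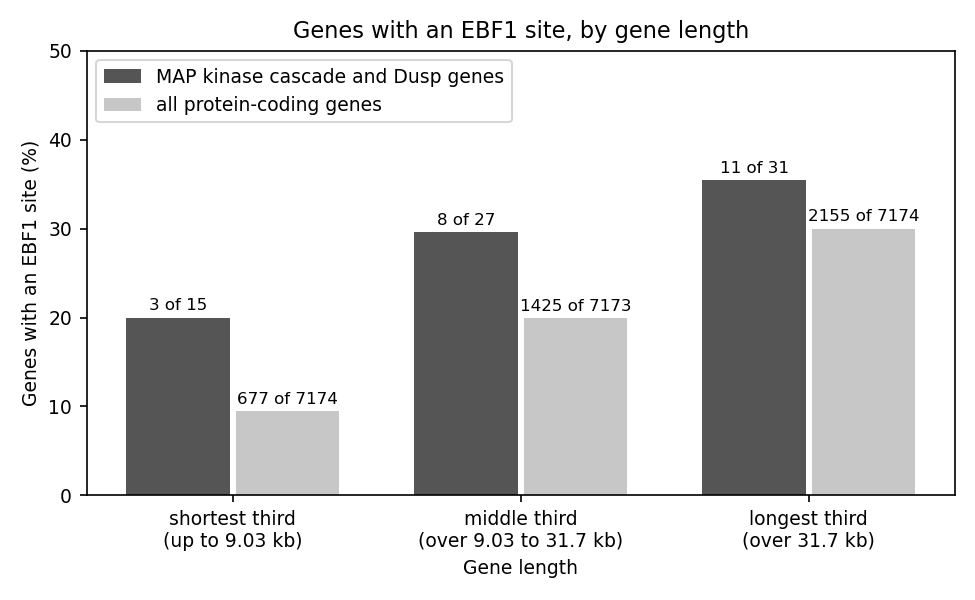
Share of genes with an assigned EBF1 site (y axis, %) among MAP kinase cascade and Dusp genes (dark) and all protein-coding genes (light), in 3 bins of gene length with equal numbers of all genes (x axis). Bars start at 0, with counts above them. The share grows with length in both, and the 73 genes lie higher in each bin, with 3 of 15 genes in the first.

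Other genes of MAP kinase signalling were taken from 5 lists of 85 symbols, of which 84 were found on the assembled chromosomes. Of these, 39 (46.4%) had a site, against 19.8% of all protein-coding genes. The lists were chosen with earlier results of these data known, so the contrast is a description only. The part of gene length in it was not tested. The share was 25.0% in the list of Ras proteins and exchange factors (7.27 to 52.4%) and 47.1 to 55.6% in the other 4. Of Ras proteins and their exchange factors, 4 of 16 had one: Rras2 (3 sites), Rasgrp2 (3), Sos1 (1) and Sos2 (1). Rasgrp2 encodes a Ras-family exchange factor of blood cells, and its 3 sites lay inside the gene, each within 1 kb of its nearest listed start. They were 336 and 529 bp upstream (CTD-ind) and 396 bp downstream (YmA-ind). These distances are not all from the same start. Of the inhibitors of Ras and MAP kinases, 8 of 17 had a site: Rasa3 and Dab2ip (4 each), Spred2 (3), and Rasal1, Rasa4, Spry2, Ptpn5 and Ptpn7 (1 each).

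Of Raf kinases, scaffolds and related kinases and activators, 11 of 22 had a site. Ksr1, the gene of a scaffold that joins Raf, MEK and ERK, had 5, of which 3 were CTD-ind. All 3 genes of the GADD45 proteins, which activate MEKK4, had sites: 4 at Gadd45g and 1 each at Gadd45a and Gadd45b, all outside the genes at 3.30 to 94.5 kb. The others included Mapkap1 (2) and Braf, Ksr2, Mink1, Taok3 and Spag9 (1 each). Of the kinases that MAP kinases activate, 6 of 11 had a site: Rps6ka2 (2) and Mapkapk2, Mapkapk5, Mknk2, Rps6ka4 and Rps6ka5 (1 each). Of transcription factors targeted by MAP kinases, 10 of 18 had a site: Fos and Elk3 (3 each), Junb, Elk4, Egr1, Mef2a and Mef2c (2 each), and Jund, Egr3 and Mef2d (1 each). YmA-dep sites, the smallest class of the list, were 2 of 69 in these lists (2.90%, 0.353 to 10.1%), 1 at Ksr1 and 1 at Rps6ka2, against 11.9% of all sites.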

How the data were processed

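The deposited file of the EBF1 wt library lists site positions (in bp) and a text class, per the file headers; no unit of signal, count or score is given. Per the submitters' processing notes, Bowtie2, SAMtools and deepTools were used with GRCm38 (mm10). How sites were called, and why all are 300 bp wide, is not stated by any source used here. Sites called too strictly or too loosely would change every count. Gene spans came from a RefSeq table of GRCm38.p6; genes on scaffolds, Y and the mitochondrial genome were removed, leaving 49209 genes, with 21521 protein-coding ones. Strand and starts came from the RefSeq promoter table, which listed 55 of the 73 genes; for the other 18 only gene ends are given. Positions are 1-based and distances run from the site centre. The assignment was run on simulated sites placed at known genes, a check of the code only. Of the sites, 7082 were assigned. Python 3.11.15, pandas 2.3.3 and scipy 1.17.1 (intervals) were used. No test was run, since each group is 1 library and sites are not replicates. The genes, lists and subgroups were chosen with earlier results of these data known. Of the 73 genes and the pathway lists, genes with a site are named, except 1 of the 73 and 1 list gene, which are not reported here by name but stay in the counts. Of the named ones among the 73, those with 3 or more sites or with a site within 1 kb of a start are given with coordinates. List genes are given by their number of sites.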

Additional observations from a re-analysis of the deposited data

How the results depend on the processing

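The 22 genes with a site stayed within 1.5 times that count under the 7 alternatives run, between 15 (of 55 genes, nearest listed start) and 24 (any site inside or within 10 kb, chosen after seeing the data, 32.9% against 22.3% of all protein-coding genes). The count was 18 with sites inside the gene only, where the 42 sites became 25. The share of all protein-coding genes was taken only for the main assignment and the 10 kb setting. The other alternatives therefore show how the count held, not how the contrast with all genes did. Over the other alternatives the sites numbered 32 to 46. Class shares and the share near gene ends stayed inside their intervals throughout, but those intervals were wide. By tier, 6 of 36 alternative counts of genes moved by more than 1.5 times. With nearest listed starts, MAP4K genes had 2 (4 in the main assignment) and MAP kinase genes 3 (5), and with sites inside only Dusp genes had 3 (5). The 6 further genes had 1 (2) in 3 settings: within 20 kb, inside only and nearest listed starts. The setting of nearest listed starts leaves out the 18 genes with no listed start, among them Map4k4, Mapk4 and Mapk1ip1. Part of the lower counts in that setting was therefore fixed in advance. MAP2K genes had 0 under each alternative, but settings that only narrow the main rule could not have given more. The nearest site of any MAP2K gene, 17.6 kb away, also lay outside the 10 kb window. Of 132 alternative counts of sites per gene, 33 moved by more than 1.5 times, among them Dusp4 (0 within 20 kb), Map3k8 (1 within 20 kb) and Map3k1 (6 with no limit). Of the 70 promoter windows, 22 held CCCNNGGG (31.4%, against 13.7% of all windows), 6 held it with T before or A after it (8.57%, against 6.56%), and 0 held it with both (against 0.904%). Of the 22, only 3 shared bases with a site. No paired analysis was possible because each group holds 1 library. Unknown depth limits each statement on genes without a site.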

Other observations

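Beside the assigned sites, 8 pairs of a gene and a site of another gene lay within 10 kb. They were at Map4k2 (2), Mapk12 (2), Map4k3, Map3k3, Map3k10 and Mapk8ip1. The site nearest to its gene was the YmA-ind one assigned to Men1, 229 bp from Map4k2. Within 100 kb of Map4k2 lay 11 sites of any gene, the most of the 73 genes, and the 3 sites of Rasgrp2 were among the sites of that stretch of chromosome 19. Dusp5 followed with 9, and Map3k4 and Map2k2 had 7 each, the last with none assigned to it. At the far end, Dusp21, Dusp10 and Dusp19 had their nearest site 2739, 1884 and 1362 kb away.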
